A study of Mus musculus with 19 samples.

Results

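Stretches of liver DNA in which CpG sites that differed between wild-type and Mat1a knockout mice lay close together, here called dense runs, were described in 2 comparisons. The authors' deposited tables list single CpG cytosines, 1 row for 1 strand, whose methylation differed between groups. Rows at most 1000 bp from the row before were joined, and stretches of 5 or more rows were kept. This gave 82 runs with 669 of the 6721 rows (9.95%) listed for wild type against placebo-treated knockout, out of 4618 stretches. It gave 67 runs with 539 of the 5383 rows (10.0%) for wild type against SAMe-treated knockout, out of 3607 stretches. Both sets together held 804 distinct positions of the 8525 listed in the 3 tables of the series.

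The runs were chosen by the measured values, because a row had to pass the authors' thresholds to be listed and listed rows had to be close to each other. Position, spacing, size and direction of the runs are therefore given as a description, with no test.

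Mouse liver DNA was examined by reduced-representation bisulfite sequencing, in which restriction enzymes (MspI and TaqαI here) release CpG-rich fragments and bisulfite marks their unmethylated cytosines. There were 8 untreated wild-type (WT) mice, while 6 mice with Mat1a knockout (KO) received placebo and 5 with the same knockout received SAMe (S-adenosylmethionine) for 8 weeks, and all were 10 months old. The labels used here do not say how the knockout allele was made, and WT animals had no placebo, so that each WT comparison changes genotype and treatment procedure together. Both WT comparisons use the same 8 WT animals. The third table compares the 2 treatments among KO mice. The tables hold differences in percentage points with p-values and q-values, and no methylation level, coverage or value of an animal. No spread between animals can be given, the depth is unknown, and neither the knockout nor the cell types of the liver can be checked in them. Differences were read as KO minus WT, and as SAMe minus placebo among KO mice, an order that the tables do not state. Every listed row has an absolute difference above 20 percentage points, so a position that is not listed may lie below that limit, may have missed the q-value limit or may not have been covered.

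The product of Mat1a is the methionine adenosyltransferase of adult liver, the enzyme that joins methionine and ATP into SAMe. SAMe is the methyl donor that DNA methyltransferases use to methylate cytosine, mostly where a guanine follows it. Neighbouring CpG sites often share their methylation state, CpG-rich stretches at gene starts are usually unmethylated, and sites within gene bodies are often methylated.

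Few runs reached a gene start for which a RefSeq promoter sequence was at hand. In 4 promoter windows of the table (250 bases before to 50 after a start, GRCm38.p6, a patched release of the assembly known as mm10) a row of a run was found. Windows at 3 starts are shown from 250 bases before to 30 bases after the start, 5′ to 3′ on the gene's strand, with each CpG that holds a row of a run in capitals. They are shown because one is covered by a run of strongly lower rows, one holds CpG sites listed in both WT tables, and one lies next to the only run of higher rows.
Gm12992 promoter (chr4:131920000-131920279, minus strand): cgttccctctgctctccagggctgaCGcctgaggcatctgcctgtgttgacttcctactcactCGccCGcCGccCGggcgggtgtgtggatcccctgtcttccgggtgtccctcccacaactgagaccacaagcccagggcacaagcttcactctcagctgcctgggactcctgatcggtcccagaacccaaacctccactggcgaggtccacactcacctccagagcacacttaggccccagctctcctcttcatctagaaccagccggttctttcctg
Shroom3 promoter (chr5:92809132-92809411, plus strand): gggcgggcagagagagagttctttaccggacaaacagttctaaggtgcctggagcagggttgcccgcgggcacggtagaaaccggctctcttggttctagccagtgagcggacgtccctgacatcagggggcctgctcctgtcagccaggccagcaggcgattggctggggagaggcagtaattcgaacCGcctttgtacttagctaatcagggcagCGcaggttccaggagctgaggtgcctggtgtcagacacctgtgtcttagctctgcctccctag
Gcsh promoter (chr8:116993469-116993748, minus strand): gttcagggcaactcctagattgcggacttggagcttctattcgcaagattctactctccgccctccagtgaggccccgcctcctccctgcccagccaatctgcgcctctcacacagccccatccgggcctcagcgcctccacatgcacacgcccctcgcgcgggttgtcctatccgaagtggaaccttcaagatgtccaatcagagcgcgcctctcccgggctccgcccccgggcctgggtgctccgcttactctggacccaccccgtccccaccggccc

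The Gm12992 window holds 11 CpG, against a median of 6 over the 32851 windows of the table, of which 93.7% hold at least 1 (the motif CG, which reads the same on both strands). Its 5 CpG in capitals, at −224 to −175 relative to the start, differed by −32.5, −53.6, −54.9, −57.5 and −46.1 percentage points in the authors' deposited table for placebo-treated KO. They belong to a run of 7 rows assigned to Tmem200b, a gene whose span also covers these 5 CpG and the Gm12992 start. No row of the SAMe table fell in this window. The Shroom3 window, at a start inside the gene of an actin-binding protein, holds 12 CpG. Its 2 CpG in capitals, at −61 and −33 relative to the start, were at −23.4 and −25.2 in placebo-treated KO and at −20.4 and −27.1 in SAMe-treated KO (the authors' deposited tables). The Gcsh window holds 20 CpG, and none of them was listed in any of the 3 tables. It has 4 CCGG sites, the MspI motif, which is found in 50.8% of windows, and 0 TCGA sites, the TaqαI motif, found in 20.6%.

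Nearly all runs were made of CpG rows with lower methylation in KO mice. In WT against placebo-treated KO all 82 runs held lower rows only, beside 99.4% lower rows in the whole table. In WT against SAMe-treated KO 66 of 67 runs did, beside 99.0% in the whole table, and the remaining run, at Gcsh, held higher rows only. No run mixed directions in either comparison, which with such backgrounds says little about the runs themselves.

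The size of the difference varied between runs and within them. The mean over a run's rows ran from −51.4 to −23.3 percentage points with placebo (median −30.1) and from −50.2 to 24.4 with SAMe (median −30.1). The median row in runs was at −31.3 and −31.0, beside −25.9 and −26.6 over all listed rows. The share of run rows at or beyond 40 percentage points was 23.5% with placebo (157 rows) and 19.1% with SAMe (103 rows), beside 9.27% and 10.8% of all listed rows. Many of these rows came from a few runs. Prob1 held 21 with placebo and 20 with SAMe, Fbrsl1 15 and 13, and Nfix 11 and 13. The share without these runs was not taken, so how far the higher share holds for runs in general was not tested. Of the rows of at least 60 percentage points, 9 of 40 with placebo (22.5%) and 6 of 36 with SAMe (16.7%) were in runs, beside 9.95% and 10.0% of all listed rows. Within a run the highest and lowest row were a median of 16.2 (range 1.94 to 41.8) and 15.7 (2.69 to 41.9) percentage points apart. Rows at most 50 bp apart in the same run differed by a median of 4.81 and 4.83. The authors' q-values in runs reached at most 0.00126 and 0.00271 and were listed as 0 for 64.1% and 57.3% of the run rows. These q-value figures were not taken over all listed rows of each comparison, so they do not set the runs apart.

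**Figure D1:**
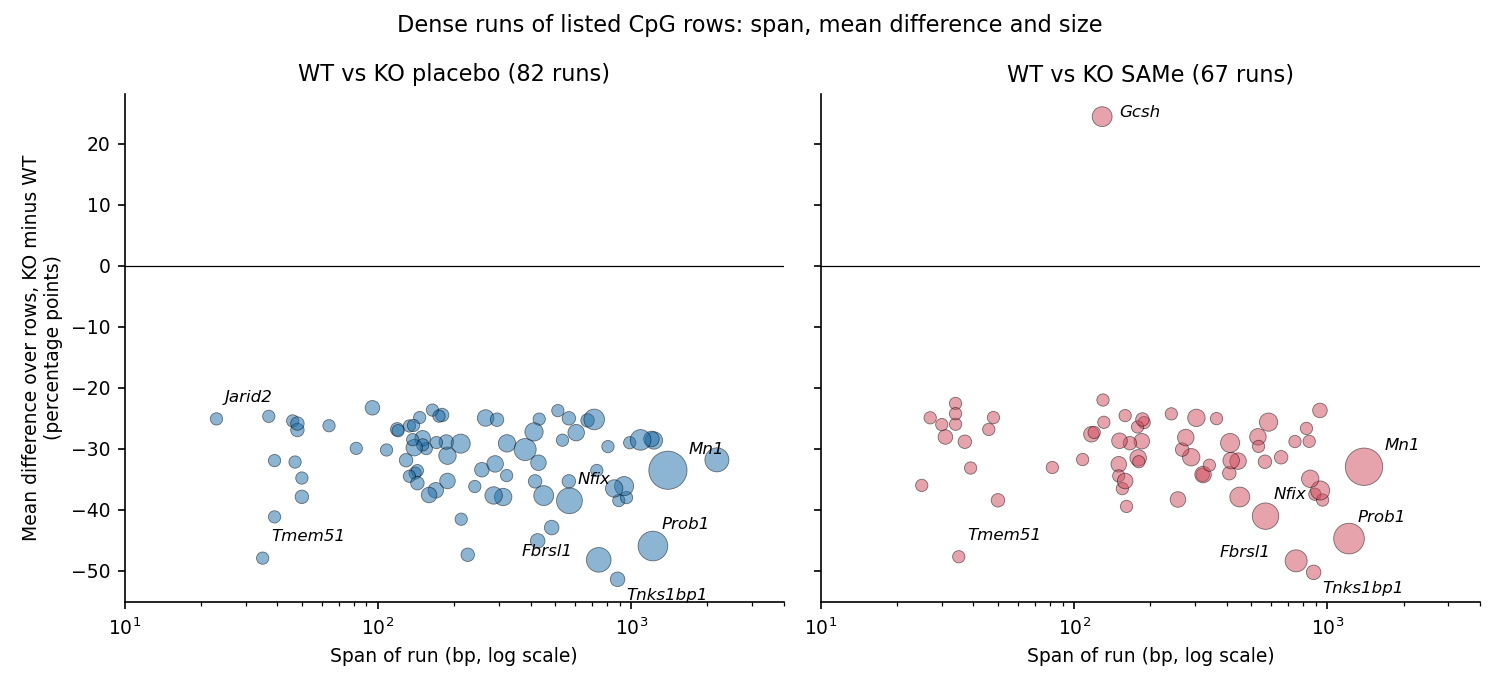
Each circle is 1 dense run, with its span in bp on a log scale on the horizontal axis and the mean KO minus WT difference over its rows, in percentage points, on the vertical axis. Circle area grows with the number of rows (5 to 48), and every run but that of Gcsh, at 24.4 in the SAMe comparison, lies below 0.

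Most runs were short and tightly packed. The median run had 6 rows in both comparisons and spanned 219.5 bp with placebo (23 to 2179) and 189 bp with SAMe (25 to 1396). Of the 587 and 472 gaps between neighbouring rows, 79.4% and 81.6% were at most 50 bp, with medians of 13 and 12 bp. Only 15 and 11 gaps were above 500 bp. Joined at 100 bp in place of 1000 bp, the runs fell into 158 and 127 patches with median spans of 45 and 39 bp, and 32 and 25 runs were a single patch. Of the patches with 2 or more rows, 78 of 124 and 76 of 110 lay on 1 strand. The rule joins close rows, and spacing and strand were not taken over all listed rows. These values therefore do not set the runs apart.

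Both strands of a CpG were rarely listed in runs. Among 656 distinct CpG in runs with placebo and 528 with SAMe, 13 and 11 had both strands listed. There the strands differed by a median of 7.18 and 4.56 percentage points, at most 15.0 and 16.0. All rows were on 1 strand in 21 runs of each comparison. Both-strand CpG were not counted over all listed rows, so their low number does not set the runs apart.

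The rule keeps 5 rows and leaves out 4. With placebo 35 stretches had exactly 5 rows and 75 had 4, and the medians of their mean differences were −29.6 and −28.9. With SAMe 31 stretches had 5 rows and 77 had 4, with medians of −27.3 and −29.5. Just inside the limit with placebo were Glb1l (mean −34.0, rows −46.6 to −20.6 over 140 bp) and Nacc2 (−33.5, rows −38.0 to −23.2 over 731 bp). Just outside were Erfe (−26.2, rows −28.3 to −24.1 over 15 bp) and Dab2ip (−32.5, rows −36.1 to −29.4 over 12 bp). With SAMe the inner neighbours were Thnsl1 (−39.4, rows −48.1 to −30.2) and Ube2v1 (−33.1, rows −39.8 to −20.2), and the outer ones LOC108168726 (−27.3, rows −30.5 to −24.8) and C1ql3 (−26.1, rows −32.2 to −20.6).

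The run with the most rows in both comparisons lay at the gene of a transcriptional regulator. Mn1, which encodes a transcriptional coregulator, had 48 rows over 1396 bp of chromosome 5 (111418823 to 111420218), 1523 bp inside the gene's nearer end. In the authors' deposited table for placebo they ran from −45.6 to −20.7, with a median of −33.5. With SAMe 46 rows covered the same span and ran from −54.6 to −21.4, with a median of −33.4. The 45 rows in both tables had means of −34.2 and −33.2. Placebo rows fell into 4 patches whose means, from −34.0 to −32.4, differed by less than rows within any of them. The SAMe rows fell into 5 patches with means from −36.5 to −29.0.

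Nfix, a gene for a nuclear factor I transcription factor, had 22 rows with placebo and 23 with SAMe over 570 bp of chromosome 8 (84784452 to 84785021). The placebo rows ran from −57.7 to −20.01 and the SAMe rows from −61.4 to −20.9. The 22 shared rows had means of −38.5 with placebo and −41.8 with SAMe. The third patch held most rows, 16 and 17, and had means of −40.5 and −42.9.

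Zfp316, which encodes a zinc finger protein, had the longest run, 19 placebo rows over 2179 bp of chromosome 5 (143253069 to 143255247), from −46.5 to −21.8. In the SAMe table it was split into runs of 9 rows over 532 bp (mean −28.0) and 8 rows over 151 bp (mean −28.7), and the middle patch of 3 placebo rows (mean −34.5) was not listed. Over the 8 rows of the second of these runs the means were −33.8 with placebo and −28.7 with SAMe.

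Nr2f2, the gene of the orphan nuclear receptor COUP-TFII, had the least negative mean with placebo, −23.3 over 7 rows (−26.3 to −21.4) within 95 bp. The same 7 rows had a mean of −28.1 with SAMe, where an added row made the run 8 rows long.

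Genes of chromatin regulators also held runs. Fbrsl1, a relative of the fibrosin gene, had 20 placebo rows over 744 bp of chromosome 5 (110363046 to 110363789). Their mean was −48.2, and 15 of them were at or beyond −40. They formed patches with means of −42.8 and −54.8. The SAMe run of 16 rows over 753 bp had a mean of −48.3, and its patches had means of −42.2 and −53.1. The first patch held 11 rows with placebo and 7 with SAMe, and the second held 9 in each.

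Usp49, which encodes a histone H2B deubiquitinase, had 16 placebo rows over 381 bp of chromosome 17 (mean −30.1, rows −49.1 to −20.3). SAMe had 9 of these rows, with means of −27.1 and −28.1 over them. This stretch also lies in the overlapping gene model Gm20517, and the tables cannot assign it to either. Gse1, a gene of a corepressor-associated protein, had 6 placebo rows (mean −35.3) and 9 SAMe rows (mean −31.9) over the same 417 bp. Prdm16, which encodes a zinc finger regulator of brown fat identity, had 8 placebo rows (mean −36.8) and 9 SAMe rows (mean −31.5).

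Prob1, the gene of a proline-rich protein, held the second most rows, 29 with placebo and 31 with SAMe over 1218 bp of chromosome 18 (35652867 to 35654084). The placebo rows ran from −64.0 to −22.3 and the SAMe rows from −62.2 to −24.4. All 29 placebo rows were listed with SAMe too, and had means of −45.9 and −44.8. This run was uneven along its length: the 6 placebo patches had means between −51.2, over 8 rows, and −22.3, a single row.

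**Figure D2:**
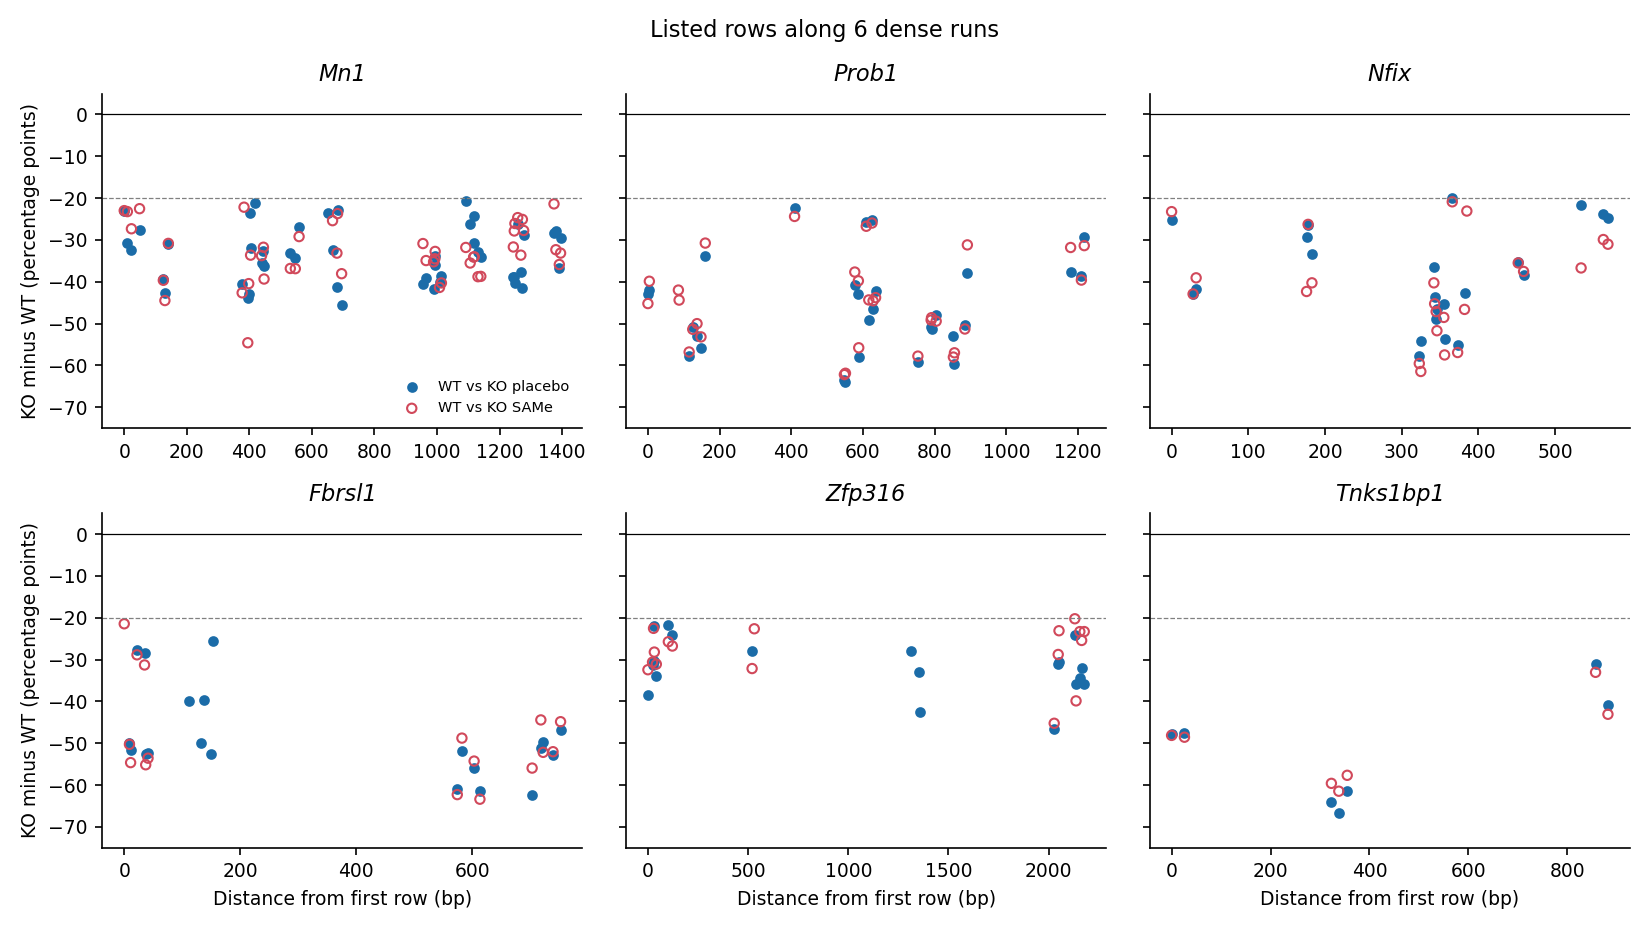
Listed KO minus WT differences in percentage points (vertical axis) against the distance in bp from the first listed row (horizontal axis) for 6 runs. Filled points are rows of WT vs KO placebo, open points rows of WT vs KO SAMe, and the dashed line marks −20, above which no row is listed. The placebo patches of Mn1 have means from −34.0 to −32.4 and its SAMe patches from −36.5 to −29.0, and the middle patch of Zfp316 has placebo rows only.

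Runs also lay at genes of metabolism. Bdh1 encodes the mitochondrial 3-hydroxybutyrate dehydrogenase, which interconverts ketone bodies. Its 13 rows over 451 bp of chromosome 16 (31428818 to 31429268), 65 bp from a RefSeq start, were the same positions in both tables. They ran from −52.9 to −21.3 with placebo (mean −37.7) and from −52.2 to −23.9 with SAMe (mean −37.9). Cyp26c1, a retinoic acid-degrading cytochrome P450 gene, had 11 placebo rows (mean −27.2) and 12 SAMe rows (mean −29.0) over 413 bp of chromosome 19, all on the minus strand. Gal3st1, which encodes the sulfotransferase that makes sulfatide, had 12 placebo rows over 212 bp of chromosome 11 (mean −29.1, rows −41.0 to −20.6). Only 4 of these were in the SAMe table, too few for a run, and over them the means were −24.4 and −22.5.

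Shmt2 encodes the mitochondrial serine hydroxymethyltransferase, which feeds carbon from serine into folate. It had 7 placebo rows over 485 bp of chromosome 10 (127519654 to 127520138), narrowly spread from −46.1 to −38.4 with a mean of −42.9. The SAMe table listed 2 of them, at −51.0 and −47.3 where placebo had −40.7 and −42.0, so the missing 5 leave the run out of the SAMe set although its listed rows were no nearer to 0.

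The other runs with 10 or more rows in either comparison lay at genes of varied function or away from coding genes. Fut11, a fucosyltransferase gene, had 14 placebo rows (mean −25.2) and 11 SAMe rows (mean −25.6), starting 216 bp from the gene's start. Hs3st3b1, a heparan sulfate sulfotransferase gene, had the same 10 rows over 856 bp in both tables (means −36.5 and −34.9), 1107 bp outside the gene. Mapk15, an atypical MAP kinase gene, had 14 placebo rows over 1089 bp (mean −28.5) and 10 SAMe rows over 304 bp (mean −24.9). Rab36, a small GTPase gene, had the same 12 rows in both, all on the plus strand, with means of −36.1 and −36.8. Cacna1b, which encodes a subunit of the N-type calcium channel, had 10 placebo and 8 SAMe rows, with means of −33.4 and −28.7 over the 8. Chpf2, a chondroitin synthesis gene next to Smarcd3, had 10 placebo rows over 1229 bp and 9 SAMe rows over 444 bp. The placebo span contains the hairpin of Mir671, in which no row lay. Cercam had 10 placebo rows (mean −37.9) and 1 SAMe row, and 10 rows on chromosome 4 (82537419 to 82537704, mean −37.6) had no coding gene within 2 kb and 3 SAMe rows. Zfp703, a zinc finger gene, had 10 rows with SAMe (mean −31.4) and 9 with placebo (mean −32.5), all on the minus strand.

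The deepest mean of both sets was at Tnks1bp1, the gene of a tankyrase-binding protein. Its 7 rows over 883 bp of chromosome 2 (85062647 to 85063529), all on the plus strand, were −47.8, −47.5, −64.0, −66.7, −61.5, −31.1 and −40.9 with placebo in the authors' deposited table. The mean was −51.4 with placebo and −50.2 with SAMe, and the middle 3 rows were the lowest in both. Tmem51, a transmembrane protein gene, had 5 rows within 35 bp with means of −47.9 and −47.7. Mical2, which encodes an actin-oxidising enzyme, had 6 placebo rows (mean −47.3), 4 of them listed with SAMe. Tmem200b, the run that reaches the Gm12992 window printed above, had 7 placebo rows (mean −45.1), and 2 were listed with SAMe. Thnsl1 (mean −39.4) was the sixth lowest SAMe run.

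Long runs with few rows were also kept by the rule. Agt, the angiotensinogen gene expressed by liver, had 5 rows over 958 bp in both tables (means −38.0 and −38.4), with 1 gap of 896 bp. Scnn1a, a sodium channel subunit gene, had 5 rows over 893 bp with a gap of 835 bp (means −38.5 and −37.4). A placebo run of 8 rows at 1700003E16Rik covered 1201 bp (mean −28.4), and a SAMe run of 7 rows on chromosome 15 covered 935 bp (mean −23.7) with no coding gene within 2 kb. At the other end, median gaps were 4.5 bp at Jarid2 and in a run of 5 rows on chromosome 3 (96464253 to 96464289) with placebo, and 6 bp at Nelfe and Cacna1b. With SAMe they were 4 bp at Gcsh and 5 bp at Snx20 and at Esr1, the oestrogen receptor gene, which had 7 rows within 31 bp (mean −28.1) and 4 of them with placebo.

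Runs lay mainly within gene bodies. A coding gene was at most 2 kb away for 74 of 82 runs with placebo (90.2%) and 62 of 67 with SAMe (92.5%), and 71 and 58 were inside one (86.6% in each). Of the run rows 90.6% and 90.7% lay inside a coding gene, beside 69.2% and 71.1% of all listed rows. The runs reached 86 of the 21887 coding genes with placebo (0.393%) and 72 with SAMe (0.329%). For the 81 and 66 runs on chromosomes of the promoter table, the nearest tabled start of any gene was a median of 7209 and 8361.5 bp away, and 13 in each set were within 1000 bp of one. The table does not hold every start, so these distances are upper limits. Exons and introns were not separated, since the gene table has none.

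Chromosomes differed in the share of their listed rows that lay in runs. The share was 21.7% and 22.5% on chromosome 5, where Mn1, Fbrsl1 and Zfp316 lie, and 21.9% and 17.3% on chromosome 10. Chromosome 8 had 13.8% with placebo and 21.8% with SAMe, and the latter includes Nfix and Gcsh. Chromosome 12 had no run although it held 259 and 203 listed rows. Mat1a itself lies on chromosome 14 (41105012 to 41124428). Within 10 Mb of it there was no run with placebo and 1 with SAMe, 5 rows at 48968988 to 48969167 with a mean of −32.1, although 7 and 6 rows of at least 60 percentage points were listed there.

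**Figure D3:**
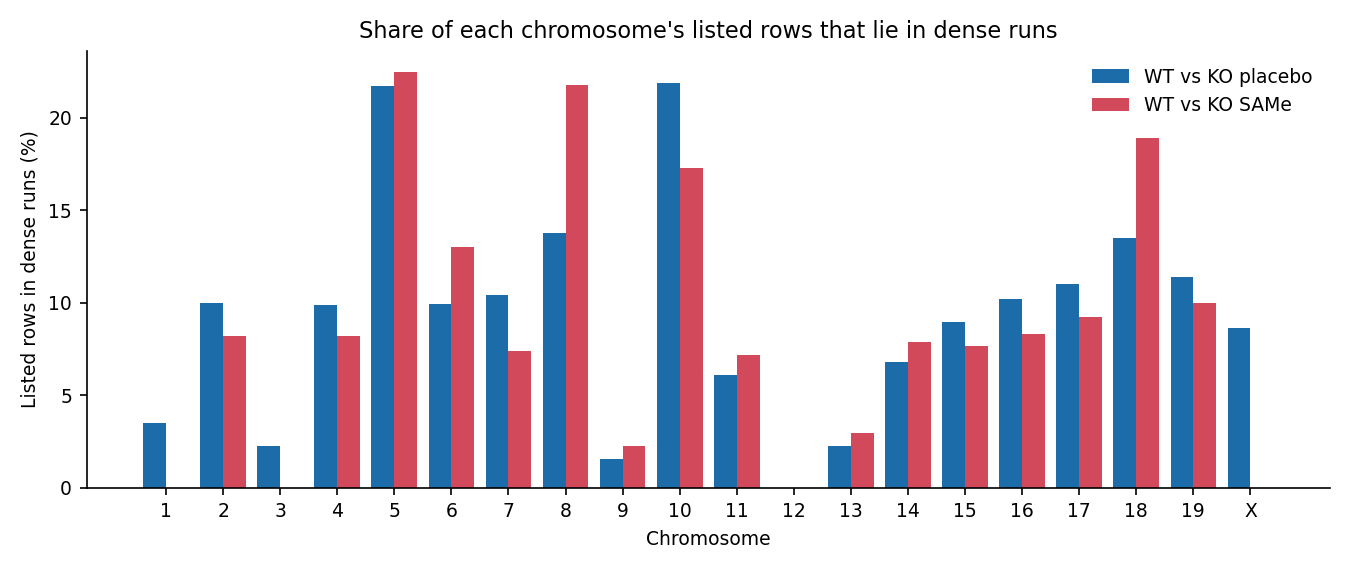
Share of each chromosome's listed rows, in percent, that lie in dense runs, with 1 bar for each WT comparison. Chromosome 5 stands at 21.7% and 22.5%, and chromosome 12 has no run in either.

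The lists of genes used to order the runs include genes picked from earlier results of these tables, such as Mn1, Nfix and Bdh1, so their counts support nothing beyond the description. They stand beside runs at 0.393% of all coding genes with placebo and 0.329% with SAMe. With placebo 17 listed genes had a run and with SAMe 12. Among 46 chromatin regulators 5 had a run with placebo (Fbrsl1, Usp49, Prdm16, Gse1 and Jarid2) and 4 with SAMe, all but Jarid2. Among 76 transcription factors 4 had one in each (Mn1, Nfix, Nr2f2 and Zfp316). Among 33 genes of methionine, folate and betaine metabolism 1 had one in each, Shmt2 with placebo and Gcsh with SAMe, while 8 and 11 had a listed row. Among 41 protein kinases 3 had a run with placebo, Mapk15, Prkce (6 rows, mean −35.6) and Prkcz (5 rows, mean −25.1), and Mapk15 alone with SAMe. Of 46 lipid and ketone genes 2 had one with placebo (Bdh1 and Gal3st1) and Bdh1 with SAMe. Cyp26c1 was the one of 28 drug and retinoid genes in each.

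As with most coding genes, no run lay at any of 16 genes of the DNA methylation machinery, at 29 insulin and energy signalling genes or at 28 imprinted genes in either comparison. Among marker genes of liver cell types, 0 of 21 hepatocyte, 0 of 27 stellate, 0 of 18 endothelial and 0 of 26 leukocyte markers had a run in either. Beside the shares of 0.393% and 0.329% over all coding genes, counts of 0 in lists of this size say nothing about these genes. Of 14 genes on the cholangiocyte list 1 had a run with placebo, Krt18 (5 rows within 47 bp, mean −32.2), and 4 of its rows were in the SAMe table. Krt18 encodes an epithelial keratin that hepatocytes make as well, so this run does not point to cholangiocytes. In bulk liver a change in the share of a cell type and a change within its cells cannot be told apart.

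The 2 WT comparisons share their WT animals, so likeness between them is not independent evidence. Of the placebo run rows 492 of 669 (73.5%) were also in the SAMe table, where 55.2% of all placebo rows were. Of the SAMe run rows 451 of 539 (83.7%) were also in the placebo table, where 68.9% of all SAMe rows were. A run of one set overlapped a run of the other for 47 of 82 placebo runs (57.3%) and 48 of 67 SAMe runs (71.6%), which made 47 common stretches, 35 with placebo alone and 19 with SAMe alone. Of the runs with no counterpart, 18 of 35 and 12 of 19 still held 3 or 4 rows of the other table, just under the limit of 5.

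Values in the common runs lay side by side. Over shared rows the 47 placebo runs and their SAMe counterparts had means that differed by at most 5 percentage points in 42 runs. SAMe minus placebo ran from −6.56 to 5.92 with a median of −0.40, and 28 runs were more negative with SAMe and 19 less. Rows had to pass 20 percentage points in both tables to be counted, which limits how far they can part. Of the 539 run positions listed in both tables, 93.1% were within 10 percentage points, with a median absolute gap of 2.90. Over all 3707 positions listed in both, 91.7% were, with a median absolute gap of 3.27. The closeness is thus about that of any row listed in both tables. The widest gaps to the more negative side were at Tnrc18 (−29.95 with placebo, −36.5 with SAMe), in a run on chromosome 2 without a coding gene (157540181 to 157540437, −33.4 and −39.3), at Erp27, an endoplasmic reticulum protein gene (−29.3 and −34.4), and at Rassf3 (−29.1 and −34.2). To the less negative side the widest was at Nelfe, the gene of a negative elongation factor subunit, with −34.8 and −28.8 over 6 rows. No spread between animals is at hand to say whether such gaps exceed it.

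**Figure D4:**
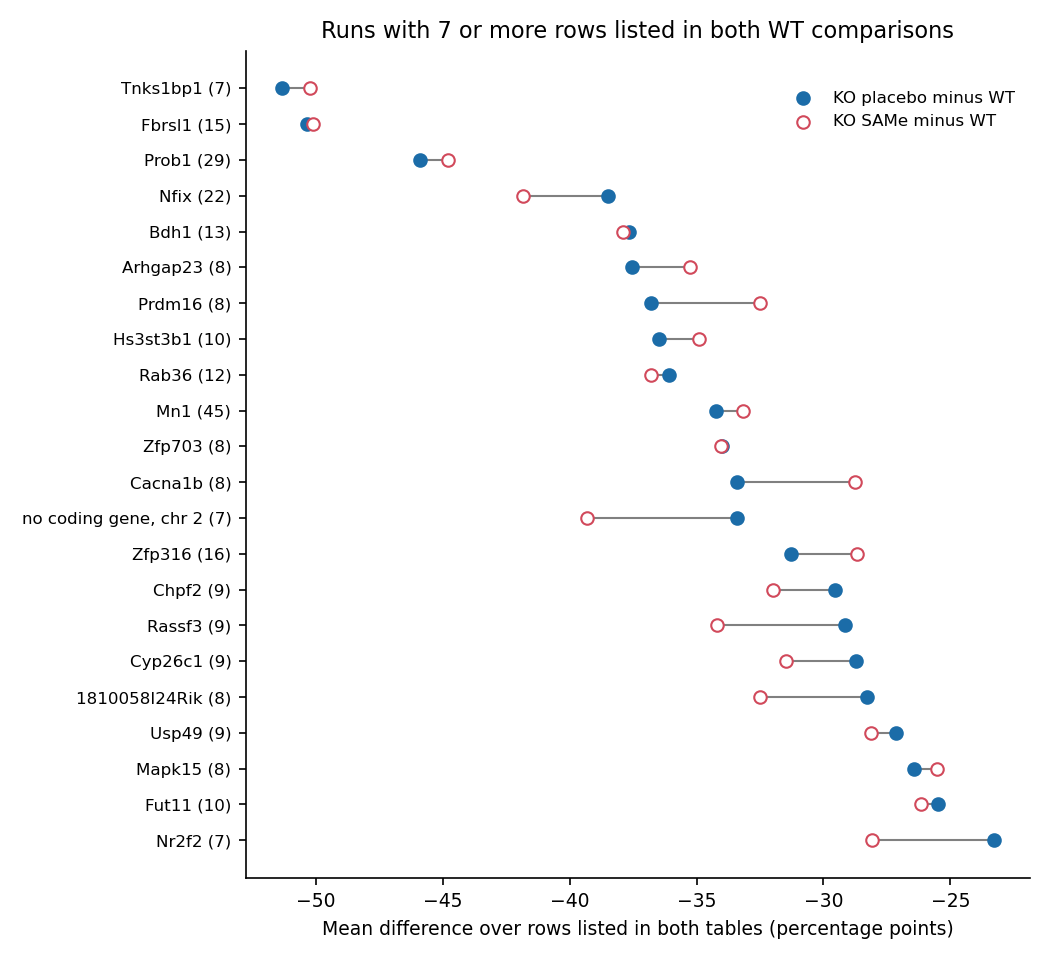
Mean difference in percentage points over rows listed in both tables (horizontal axis) for the common runs with 7 or more such rows, whose number is in brackets. Filled points are KO placebo minus WT and open points KO SAMe minus WT. Both use the same WT animals, and pairs lie close together, with Rassf3 at −29.1 and −34.2 among the widest apart.

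In a few runs the tables parted fully. With 0 rows of the SAMe table inside them were 3 placebo runs, each of 5 rows: Jarid2, Agap3 (mean −41.1 within 39 bp) and Mfsd12 (mean −34.8 within 50 bp, also within the gene model 4930404N11Rik). With 0 placebo rows were 2 SAMe runs, Gcsh and Ltbp3, the gene of a latent TGF-beta binding protein (5 rows, mean −24.2 within 34 bp). No run row of Agap3, Mfsd12 or Ltbp3 was listed between the KO groups, so no difference between these groups was shown there. Depth is unknown, so missing coverage and a smaller difference cannot be told apart at these runs.

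Gcsh is the gene of the lipoyl-carrying protein of glycine cleavage, the reaction that passes a carbon unit from glycine to folate. The SAMe table held 13 higher rows from 59 to 187 bp inside the gene's start, the stretch that follows the window printed above. On the plus strand 10 rows stood between 23.8 and 27.1 (mean 25.5), and on the minus strand 3 stood between 20.8 and 21.0 (mean 20.9). No row of the placebo table or of the KO comparison was listed there. The KO comparison was therefore below its limits, or not covered, at a stretch that passed against WT with SAMe alone.

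The KO placebo against KO SAMe table, which uses no WT animals, had few rows in runs. Of the 669 placebo run rows 7 (in 3 runs) were in it, beside 81 of all 6721 placebo rows (1.21%). Of the 539 SAMe run rows 1 was, beside 47 of all 5383 SAMe rows (0.873%). Rows of this table were few among all listed rows too, so their low number does not set the runs apart. At Jarid2, the gene of a Polycomb repressive complex cofactor, all 5 rows were in it, on the plus strand within 23 bp. These rows describe 1 stretch and are not 5 independent observations. In placebo-treated KO they stood at −25.9, −24.1, −26.8, −23.9 and −24.8 against WT, and SAMe-treated KO was higher than placebo-treated KO by 32.8, 34.4, 34.8, 33.8 and 33.6 (q from 5.15e-07 to 3.27e-06, the authors' deposited tables). By addition SAMe-treated KO was 6.97 to 10.2 percentage points above WT there, under the listing limit. In the common runs both KO groups stood below WT. Such runs had to be listed in both WT comparisons, where nearly all rows were lower, so this contrast follows from the selection.

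Prdm16 and Irf2bp1 had 1 such row each. At Prdm16 the row at 154634832 of chromosome 4 stood at −45.7 with placebo and −25.3 with SAMe, a difference of 20.4 (q = 0.0271), while its other 7 shared rows were not in the KO table. Irf2bp1, which encodes a corepressor that binds an interferon regulatory factor, had 5 placebo rows from −45.1 to −20.02. Its row at 19005200 of chromosome 7 was at −28.3 with placebo and higher by 23.4 with SAMe (q = 0.000714), which gives −4.93 with SAMe by addition. Its 2 rows in both WT tables had means of −42.7 with placebo and −27.8 with SAMe, and by subtraction both lay under the limit of 20 for listing between the KO groups.

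**Figure D5:**
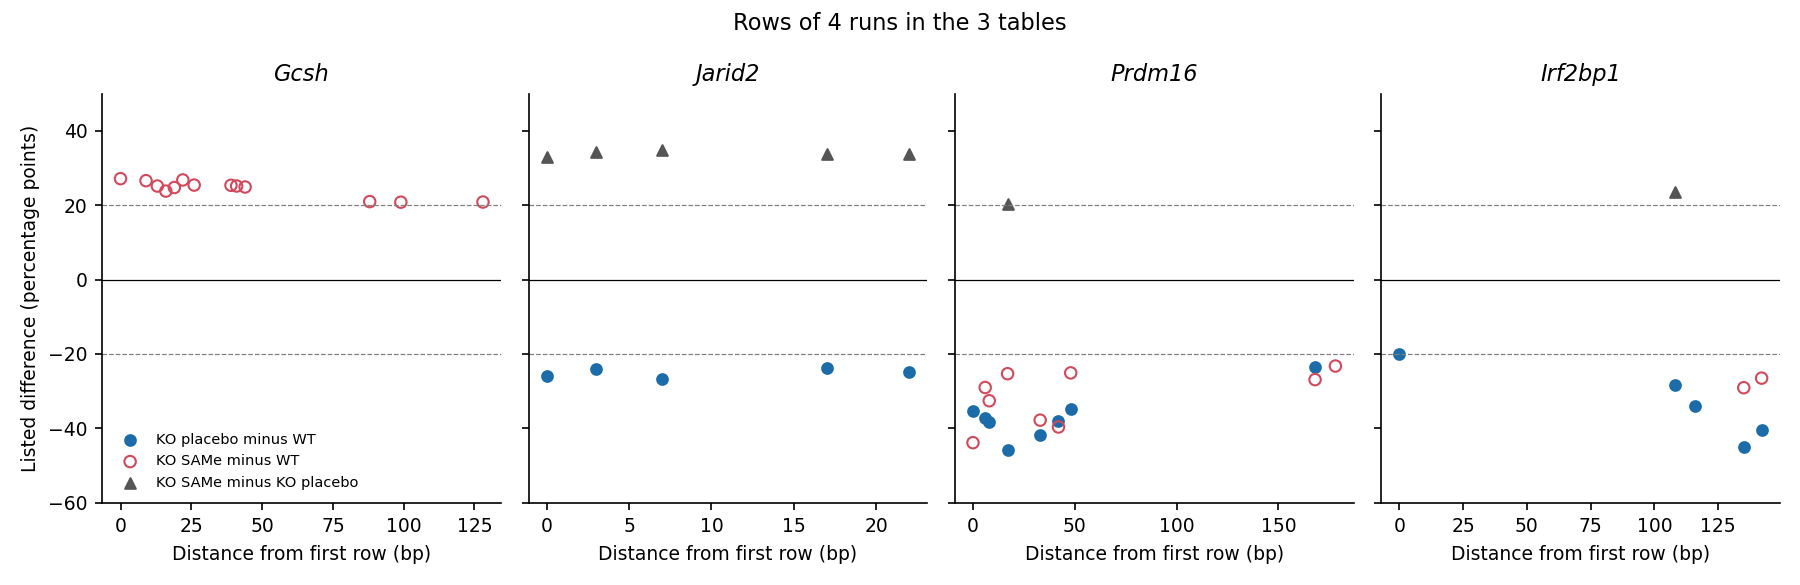
Listed differences in percentage points (vertical axis) against distance from the first row in bp (horizontal axis) in 4 runs. Filled points are KO placebo minus WT, open points KO SAMe minus WT and triangles KO SAMe minus KO placebo, and dashed lines mark the limits of 20 on either side of 0. Gcsh has higher SAMe rows alone, and the 5 Jarid2 rows lie below 0 against WT and at 32.8 to 34.8 between the KO groups.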

How the data were processed

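DNA methylation was measured in 19 livers. Per the submitters' processing notes, CASAVA 1.8.2, Trim Galore, Bismark, methylKit and mm10 were used, with roles and settings not given in the sources used here. Comparisons came as 3 tables, in which the authors deposited a p-value, a q-value and a methylation difference in percentage points for each row. The test behind them is not given, and depth per sample is unknown. The direction of subtraction was read, not stated. At the 26 positions in all 3 tables the differences add up within 1e-08, so all use 1 order.

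Runs were built with Python 3.11.15, pandas 2.3.3 and numpy 2.4.6, and the run finder was tested on simulated data. Genes and promoter windows came from RefSeq tables for GRCm38.p6. Of 443 list genes 434 matched. The 82 and 55 rows of the WT tables that fell in promoter windows all lay on a CG of their strand. Named runs were the largest, lowest, longest and tightest, the most different between tables, those with higher or KO table rows or no counterpart, and those on gene lists. Members and lists were chosen with earlier results of these data known. No test was run. The alternatives were other gap limits, fewest rows, stricter differences or q-values, and joined strands.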

Additional observations from a re-analysis of the deposited data

Results flagged for a closer look

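Runs with a row listed between the KO groups were flagged. Such rows were 7 of the 669 placebo run rows, beside 81 of all 6721 placebo rows (1.21%). With SAMe they were 1 of 539 run rows, beside 47 of all 5383 (0.873%). Being listed against WT alone was thus the rule for listed rows, in runs or not. The difference between KO groups is the authors' own test in their deposited table. At Jarid2 the SAMe minus placebo difference had a mean of 33.9 percentage points over 5 rows within 23 bp, all on the plus strand. At Irf2bp1 it was 23.4 at 1 row, and at Prdm16 20.4 at 1 row, the latter with the highest q-value of these, 0.0271. Neighbouring rows of the last 2 runs were not in the KO table.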

How the results depend on the processing

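No paired analysis was possible because the tables hold no value of any animal, and for the same reason no animal could be left out. Raising the limit on the absolute difference from 20 to 25 percentage points gave 46 runs with placebo, 37 with SAMe and 28 in common, moved the median run means to −35.3 and −34.9, and put 10.9% of the placebo rows in runs. Asking for 10 rows gave 18, 12 and 10 runs, with 4.31% and 3.85% of rows in them, a median SAMe run mean of −33.9 and 91.7% of SAMe runs with lower rows only. Asking for 3 rows gave 395, 353 and 242 runs, with 25.04% and 27.4% of rows. Over these settings median spans ran from 46 to 642 bp, so number and span of the runs follow from the limits chosen. Gap limits of 500 and 2000 bp, a q-value limit of 0.01 and joined strands kept these counts within 1.5 times and these medians within the tolerance used. These other limits on rows and differences were set with earlier results of these data known.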

Other observations

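Runs without a coding gene within 2 kb numbered 8 with placebo and 5 with SAMe, and 3 and 1 of them had a noncoding gene of the RefSeq table within that distance. A SAMe run of 5 rows within 30 bp of chromosome 17 (39843849 to 39843878, mean −26.0) shared 1 row with the placebo table, at −23.2 with placebo and −35.8 with SAMe. The KO table listed a row on either side of it, at −22.2 and 22.8, neither within the run.

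Among the placebo runs, 3 had a miRNA hairpin within 200 bp: Cercam (Mir219a-2 and Mir219b, 10 and 26 bp from the run), Chpf2 (Mir671, within the span) and Rps6ka4 (Mir5046, 110 bp away). No row lay in any of these hairpins. Chromosome X held a single run, at Tro, with 5 placebo rows from −50.6 to −20.5 and no SAMe run. The SAMe table listed 4 of these rows, too few for a run, with means of −46.8 with placebo and −46.1 with SAMe over them.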
